A study of Mus musculus with 6 samples.

Results

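The AMPA and kainate receptor subunit genes Gria1, Gria2, Gria3, Gria4, Grik1, Grik2, Grik3, Grik4 and Grik5 were followed in sorted neurons of the embryonic mouse cortex. They were taken by symbol, and all 9 were found among the 20367 genes joined across the files. None was at 0 throughout, so all entered the tests. In CPM, which divides a deposited value by the total of its library's column and multiplies it by 1000000, 8 of them averaged at least 10. The exception was Grik4.

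The cells came from C57BL/6J embryos bred from heterozygous Tbr2(Eomes)-GFP and homozygous DCX-mRFP mice. The green reporter is that of Tbr2 (Eomes), which regulates transcription in intermediate progenitors. The red one is that of doublecortin (DCX), which binds microtubules in migrating neurons. Double-colored cells stand for neurons derived from intermediate progenitors and are called IPN. Those with red alone are called non-IPN. The non-IPN gate therefore held every DCX-positive cell without green fluorescence, whatever its origin, and the series title frames the comparison as projection neurons and interneurons. Each population gave 1 library per embryonic age, with E13.5 the youngest, then E15.5 and E16.5, which makes 3 per population and 6 in all. Triplets of values below run from the youngest age to the oldest. The E15.5 libraries came from 1000000 cells each without amplification, and the E13.5 and E16.5 libraries from 10000 cells each after whole-transcriptome amplification. Levels at E15.5 were therefore not tested against another age. The labels name no separate animals, so the p-values measure only the spread between these libraries.

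AMPA and kainate receptors are ion channels opened by glutamate, each built as a tetramer of subunits, and they carry most of the fast excitatory current of the brain. The AMPA subunits GluA1 to GluA4 are encoded by Gria1 to Gria4. The kainate subunits GluK1 to GluK3, encoded by Grik1 to Grik3, can form channels on their own, whereas GluK4 and GluK5, encoded by Grik4 and Grik5, need a partner among them. AMPA receptors that contain edited GluA2 pass little calcium, and receptors without it are permeable to calcium. In the adult cortex many interneurons are known for AMPA receptors poor in GluA2, and pyramidal neurons for receptors rich in it.

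The property that sets GluA2 apart lies in a codon of the pore loop. The RNA of Gria2, and in part that of Grik1 and Grik2, is edited there by the enzyme ADAR2, which turns a glutamine codon into one read as arginine. The 27 bases around this codon are shown for the members whose levels are compared most closely below, with the codon in capitals. They are 5′ to 3′ on the coding strand, from GENCODE M21 transcripts of build GRCm38.
Gria1: ggggccttcatgCAGcaaggatgtgac
Gria2: ggtgcctttatgCAGcaaggatgcgat
Gria3: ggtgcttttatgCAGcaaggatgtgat
Gria4: ggtgcctttatgCAAcaaggatgtgac
Grik1: ggagctctcatgCAGcaaggatcggag
Grik2: ggagctctcatgCAGcaaggttctgag
Counted from the start codon, the codon is number 607 in Gria2 and 621 in Grik2. Of the 27 bases, the windows of Gria1, Gria3 and Gria4 shared 23, 25 and 24 with Gria2 at the same place, and those of Grik1 and Grik2 shared 20 and 19. The genomic codon is a glutamine codon in all of them, so arginine in GluA2 comes from editing of the RNA. The deposited values are given per gene and hold no information on whether a transcript was edited.

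Column totals ran from 12583677 to 32538995, in scaled units that do not give the true depth. Markers of both neuron classes were found on both sides of the gate. Summed over 6 projection neuron markers, IPN libraries were at 3097 to 4071 CPM and non-IPN libraries at 354 to 1562 CPM. Summed over 8 markers of GABAergic interneurons, they were at 19.3 to 62.2 and at 1244 to 4378 CPM, with Dlx5 listed at 0 in IPN at E13.5. The 8 microglia and macrophage markers summed to 1.37 to 4.72 CPM in IPN and 396 to 864 CPM in non-IPN, with C1qa, C1qc and Aif1 listed at 0 in IPN at E16.5 and C1qa in IPN at E13.5. The 7 red blood cell markers summed to 26455 CPM in non-IPN at E13.5 and to at most 248 CPM elsewhere, and the 7 radial glia markers to 2739 CPM in that library and 262 to 840 CPM elsewhere. Eomes, the gene of the green reporter, was at 437.10, 101.66 and 98.42 CPM in IPN and at 214.21, 72.47 and 72.00 CPM in non-IPN, so its RNA was higher in IPN at each age and was not absent from the other gate. The intermediate progenitor markers summed to 154 to 1413 CPM, with neither population the higher at all 3 ages, and Cajal-Retzius cell markers to 321 to 1582 CPM. Most of the latter sum was Reln (303.66 to 1509.20 CPM), with Trp73, Lhx5 and Calb2 at no more than 51.59 CPM each, so it mainly follows that single gene. Young neuron markers were present in all 6 libraries, and markers of oligodendrocyte precursors and of endothelial cells summed to at most 4.21 and 3.86 CPM. The part of these other cells in the results below was not tested.

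**Figure D1:**
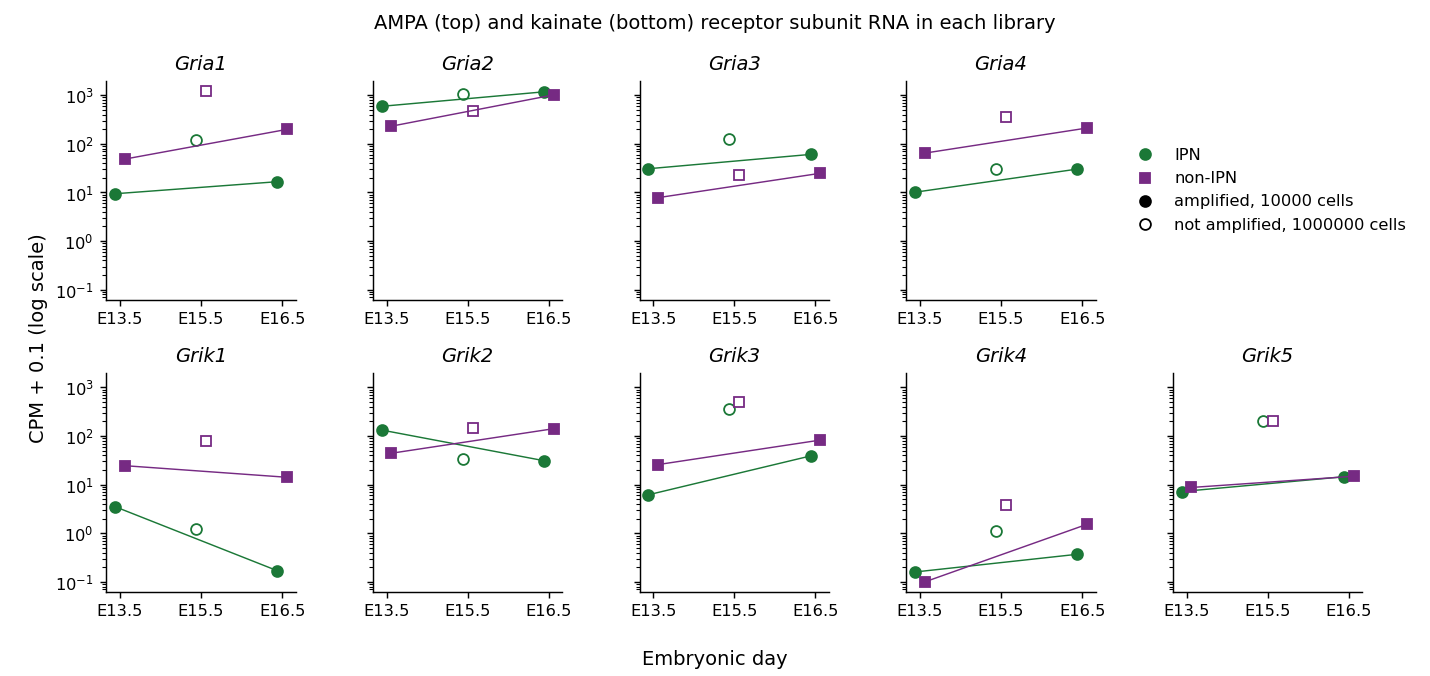
Level of each subunit RNA in the 6 libraries, as CPM plus 0.1 on a log axis, by embryonic day. Circles are IPN and squares non-IPN, filled symbols are amplified libraries joined by a line, and open symbols are the E15.5 libraries made without amplification. Gria1 and Gria4 lie higher in non-IPN at each age, Gria2 and Gria3 lie higher in IPN at each age, and the lines of Grik2 and of the scarce Grik4 cross.

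The AMPA subunits split by population. Gria1 and Gria4 were lower in IPN, and Gria2 and Gria3 higher, so all 4 were called, in a comparison that called 3.39% of 19561 genes (0.982% higher and 2.41% lower in IPN). IPN lay above non-IPN at every age for 2 of the 9 members, Gria2 and Gria3, against 14.2% of all genes, and below it for 4, Gria1, Gria4, Grik1 and Grik3, against 15.2%. The test was limma on log2(value + 1) with population and age as factors, so the 3 ages are the only replication, and the adjusted p is that of Benjamini and Hochberg over all genes. Log2 ratios of single genes are also of the deposited value + 1, which keeps the authors' scaling, so they differ from ratios of the CPM printed beside them. In bulk samples, fewer cells that express a gene and less RNA per cell cannot be told apart.

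Gria1 encodes GluA1, a subunit used in activity-dependent insertion of receptors at synapses. It was at 9.31, 122.41 and 16.55 CPM in IPN, and at 48.41, 1221.07 and 198.19 CPM in non-IPN. The non-IPN library was the higher at every age, and only the pairing by age separates the groups, since IPN at E15.5 lay above non-IPN at E13.5. The fitted difference was -2.95 ± 0.27 on the log2 scale (SE; 7.73-fold lower in IPN; limma, adjusted p = 0.000344).

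Gria4, whose product GluA4 gives fast channel kinetics and is known from interneurons and early development, was at 10.02, 30.92 and 30.16 CPM in IPN. In non-IPN it was at 64.28, 348.74 and 211.31 CPM. In CPM every non-IPN library was above every IPN library. On the deposited values used in the fit, IPN at E15.5 (1006) lay above non-IPN at E13.5 (899), so separation across ages depends on the scale. The fitted log2 difference was -2.85 ± 0.27 (7.23-fold lower in IPN; limma, adjusted p = 0.000355), close in size to that of Gria1.

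Gria2 was at 590.60, 1056.79 and 1172.56 CPM in IPN and at 230.37, 470.76 and 1015.20 CPM in non-IPN. IPN was higher at each age, and the groups overlap across ages. The log2 ratio of deposited values was 1.5, 1.22 and 0.42, and that of CPM was 1.36, 1.17 and 0.21, so the ratio was lowest at E16.5 on both scales. The summed projection neuron markers of non-IPN were at 384, 354 and 1562 CPM, also highest at E16.5, and their part in this was not tested. The fitted log2 difference was 1.05 ± 0.23 (2.07-fold higher in IPN; limma, adjusted p = 0.0332).

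Gria3 encodes GluA3, which pairs with GluA2. It was at 30.64, 126.59 and 60.53 CPM in IPN and at 7.72, 22.54 and 24.71 CPM in non-IPN. In CPM every IPN library was above every non-IPN library, but on the deposited values IPN at E13.5 (474) lay below non-IPN at E15.5 (707). The fitted log2 difference was 2.06 ± 0.31 (4.16-fold higher in IPN; limma, adjusted p = 0.00456). Gria3 is thus a second AMPA subunit on the IPN side, with a larger ratio than Gria2 at each age and a lower level.

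With limma's trend and robust options both off, 0 members were called. Without the E15.5 pair, none of the 4 passed over all genes, with adjusted p of 0.0718 for Gria1, 0.363 for Gria2, 0.226 for Gria3 and 0.051 for Gria4, while the fitted differences stayed at -2.79, 0.96, 1.81 and -2.56. Without that pair but among genes with a mean of at least 1 CPM, Gria1 and Gria4 were called (adjusted p = 0.0137 and 0.00812), and Gria2 and Gria3 were not (0.192 and 0.0985). Gria2 also lost its call without the E13.5 pair (adjusted p = 0.111), with values scaled to column totals (0.0804), among genes with a mean of at least 10 CPM (0.0604) and with a pseudocount of 16 (0.143).

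**Figure D2:**
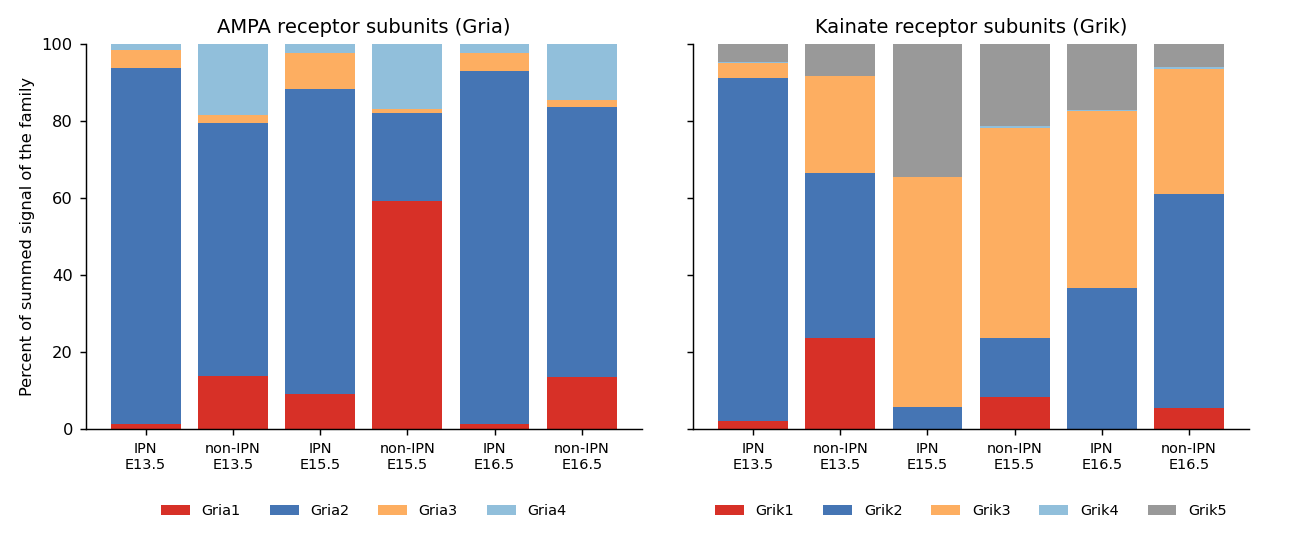
Percent of the summed signal of the 4 AMPA subunit genes (left) and of the 5 kainate subunit genes (right) in each library. Gria2 takes 79.1% to 92.2% of the AMPA signal in IPN and 22.8% to 70% in non-IPN, where Gria1 and Gria4 take most of the rest.

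The share of Gria2 in the summed signal of the AMPA subunit genes was higher in IPN at each age. It was 92.2%, 79.1% and 91.6% in IPN against 65.7%, 22.8% and 70% in non-IPN. The lowest IPN value was above the highest non-IPN value. The mean was 87.6% ± 7.43 (SD, n = 3) in IPN and 52.8% ± 26.1 (SD, n = 3) in non-IPN, and the within-age difference was 34.8 ± 18.7 percentage points (SD over 3 ages). An exact sign-flip permutation test over the 3 age pairs gave p = 0.25 (two-sided), the lowest value such a test allows, and an exact permutation of 3 against 3 libraries gave p = 0.1, also the smallest possible. These shares are of signal and not of molecules. Divided by coding length, which differs little among the 4 genes (2649 to 2721 bases), the mean difference was 34.5 percentage points, and divided by the longest transcript, which is 10371 bases for Gria2 and 5192 to 5546 for the others, it was 39.3.

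The rest of the AMPA signal was made up differently in the 2 populations. In IPN, Gria3 took 4.73% to 9.47%, Gria1 1.29% to 9.16% and Gria4 1.56% to 2.36%. In non-IPN, Gria1 took 13.8%, 59.2% and 13.7%, Gria4 took 14.6% to 18.3%, and Gria3 1.09% to 2.2%. The E15.5 non-IPN library was the only one in which Gria1 exceeded Gria2, and it was also not amplified. In both populations the share of Gria1 was highest at E15.5. Age and amplification changed together there, and cannot be told apart.

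The total AMPA subunit signal gave no such separation. The 4 genes summed to 641, 1337 and 1280 CPM in IPN against 351, 2063 and 1449 CPM in non-IPN. The log2 ratio was 0.87, -0.63 and -0.18, with a mean of 0.02 ± 0.77 (SD over 3 ages; exact sign-flip permutation p = 1), and it turned to -0.40 without the E13.5 pair. The populations thus differed in which AMPA subunit genes made up the signal, while the direction of the total changed with age.

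Of the kainate subunits, Grik1 alone was called between populations (1 of 5). Grik1 encodes GluK1, a subunit known from interneurons. It was at 3.43, 1.11 and 0.07 CPM in IPN, and at 24.45, 78.53 and 14.07 CPM in non-IPN. Every non-IPN library was above every IPN library. The fitted log2 difference was -5.07 ± 0.77 (limma, adjusted p = 0.0051). Its size depends on the pseudocount, because the IPN value at E16.5 was a single deposited unit. It was -3.82 with a pseudocount of 16, where the call was lost (adjusted p = 0.0563), and the call was also lost without the E15.5 pair (adjusted p = 0.201).

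Grik2 encodes GluK2, a widely expressed kainate subunit. It was at 132.56, 33.07 and 30.98 CPM in IPN and at 44.12, 142.65 and 141.29 CPM in non-IPN. IPN was the higher at E13.5 and the lower at the later ages, with log2 ratios of 1.73, -2.05 and -1.97. The fitted mean difference over the ages was -0.76 ± 0.78 and was not called (limma, adjusted p = 0.769). Without the E13.5 pair it was -2.01 and was called (adjusted p = 0.00553).

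Grik3 encodes GluK3. It was at 6.08, 357.66 and 38.85 CPM in IPN and at 25.74, 508.00 and 82.41 CPM in non-IPN, so non-IPN was the higher at each age. The log2 difference of -1.08 ± 0.30 did not pass (limma, adjusted p = 0.0943).

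The partner subunits gave no call. Grik5, for GluK5, was at 7.11, 206.28 and 14.43 CPM in IPN and at 8.65, 199.75 and 14.78 CPM in non-IPN. The log2 ratio of CPM was -0.28, 0.05 and -0.03, and the fitted difference was 0.05 ± 0.29 (limma, adjusted p = 0.961). It turned to -0.09 with column-total scaling. Grik4, for GluK4, was the least abundant member, at 0.06 to 1.01 CPM in IPN and 0 to 3.63 CPM in non-IPN. It was not called (-0.89 ± 0.95; limma, adjusted p = 0.769). Its deposited values at E13.5 were only 1 in IPN and 0 in non-IPN. The difference was -1.84 without the E13.5 pair and -0.38 without the E16.5 pair, and was not called in either fit.

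The 5 kainate genes summed to 149, 599 and 84.6 CPM in IPN against 103, 933 and 254 CPM in non-IPN. The mean log2 ratio was -0.56 ± 1.06 (SD over 3 ages; exact sign-flip permutation p = 0.5), and it was -0.05 without the E16.5 pair and -1.11 without the E13.5 pair. The make-up of the sum differed between the libraries of a population, and at E15.5 age cannot be told apart from the protocol. In IPN, Grik2 held 88.8%, 5.52% and 36.6% of it, and Grik3 held 4.07%, 59.7% and 45.9%. In non-IPN, Grik2 held 42.8%, 15.3% and 55.6%, and Grik3 25%, 54.5% and 32.4%. Grik1 held 23.8%, 8.42% and 5.54% in non-IPN and at most 2.3% in IPN.

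Levels of different genes can be compared only per length. As CPM per kilobase of coding sequence, Gria2 was the highest of the 9 genes in 5 libraries, at 223, 399 and 443 in IPN and at 87 and 383 in non-IPN at E13.5 and E16.5. In non-IPN at E15.5 Gria1 was the highest at 449, followed by Grik3 at 184 and Gria2 at 178. The second place went to Grik2 (48.7), Grik3 (130) and Gria3 (22.7) in IPN, and to Gria4 in non-IPN at E13.5 (23.8) and E16.5 (78.1). Dividing by the longest transcript instead kept the same gene in first place in all 6 libraries and changed places further down. With 1 library per population and age, neighbors in these orders could not be tested against each other. Grik3 and Grik5 had levels per kilobase of coding sequence of 68 to 184 in the E15.5 libraries and of 2.2 to 29.9 in the 4 amplified ones, in both populations alike, so their place in the order moved with the library protocol, which cannot be told apart from age there.

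**Figure D3:**
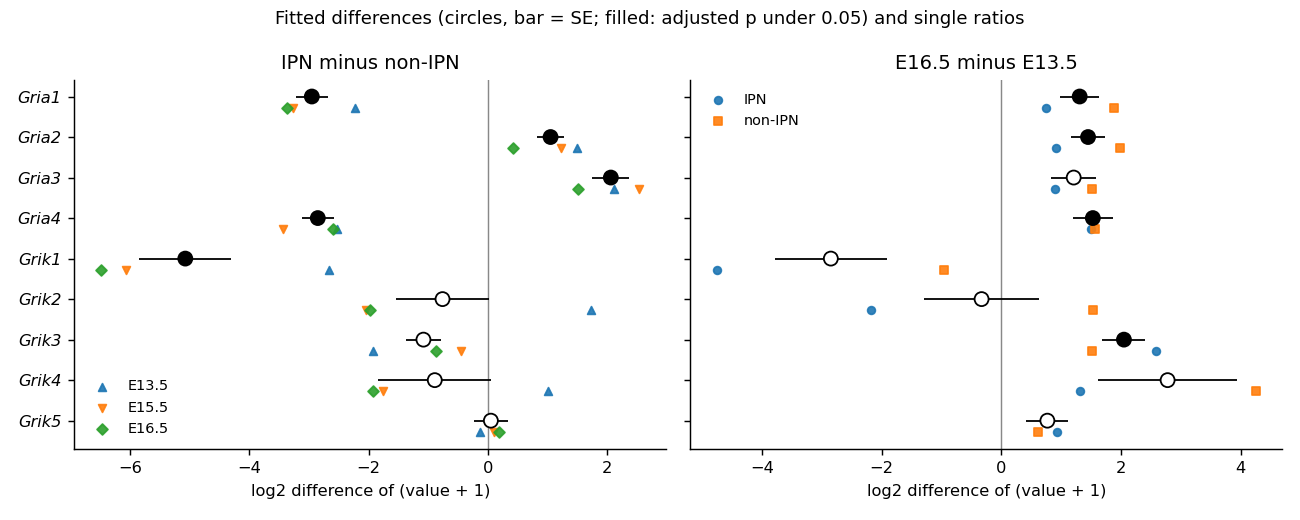
Fitted log2 differences of the 9 members between populations (left) and between E16.5 and E13.5 (right). Large circles are the fit with its SE, filled where adjusted p was under 0.05, and small symbols below each are the single ratios. The left panel shows 5 filled circles, and the right panel 4, all of them above 0.

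From E13.5 to E16.5, both made from 10000 amplified cells, 4 of the 9 members rose and none fell by the test, in a comparison that called 6.02% of all genes, 3.76% as higher and 2.26% as lower at E16.5. The libraries of an age are its IPN and non-IPN libraries, sorted from the same cortices. Age therefore cannot be told apart from the set of cortices, and the p-values between ages do not measure a spread between animals of an age. Grik3 rose from 6.08 to 38.85 CPM in IPN and from 25.74 to 82.41 CPM in non-IPN (log2 difference 2.05 ± 0.36; limma, adjusted p = 0.0119). Gria4 rose with log2 ratios of 1.5 in IPN and 1.56 in non-IPN (fitted 1.53 ± 0.33; limma, adjusted p = 0.0236). Gria2 rose with ratios of 0.91 and 1.99 (fitted 1.45 ± 0.28; limma, adjusted p = 0.0162), and Gria1 with 0.74 and 1.88 (fitted 1.31 ± 0.33; limma, adjusted p = 0.0467). Gria3 had ratios above 0 in both populations, 0.90 and 1.52, and did not pass (1.21 ± 0.38; limma, adjusted p = 0.0902). The Gria1 call was lost with median-of-ratios scaling (limma, adjusted p = 0.0565). All 4 calls were lost with a pseudocount of 16 (limma, adjusted p of 0.0628 to 0.135).

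In all, 7 of the 9 members had a higher value at E16.5 in both populations, against 27.4% of all genes tested. Grik5 (0.77 ± 0.35) and Grik4 (2.78 ± 1.16) were among them and did not pass (limma, adjusted p = 0.239 and 0.196). Grik1 was the only member with a lower value at E16.5 in both populations, with log2 ratios of -4.75 in IPN and -0.95 in non-IPN, and it did not pass either (-2.85 ± 0.94; limma, adjusted p = 0.107). The summed young neuron and interneuron markers were also higher at E16.5 than at E13.5 in each population, and the summed radial glia markers lower. In IPN the radial glia sum mainly followed Vim, which went from 774.02 to 148.55 CPM. There Pax6, Sox2, Hes1 and Hes5 were also lower at E16.5. Slc1a3 (13.57 to 60.32 CPM) and Nes (2.00 to 18.54 CPM) were higher. The projection neuron markers went from 3097 to 3395 CPM in IPN and from 384 to 1562 CPM in non-IPN, and the intermediate progenitor markers from 1206 to 284 and from 1413 to 300 CPM. The part of these cells in the age differences was not tested. Leaving out any 1 of the 4 amplified libraries, or the E15.5 pair, ended all 4 calls over all genes (adjusted p of 0.0869 to 0.547), though each fitted value stayed above 0. Among genes with a mean of at least 1 CPM, all 4 stayed called without the E13.5 IPN library, and Gria2, Gria4 and Grik3 without the E13.5 non-IPN library or without the E15.5 pair. Without the E16.5 non-IPN library, of the 4 only Grik3 was called there (adjusted p = 0.0476), and without the E16.5 IPN library only Gria2 (0.0316).

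Grik2 was the single member whose population ratio moved with embryonic day by the test. Its population by day term was -1.33 ± 0.22 on the log2 scale per day (limma with population times day as a number, adjusted p = 0.0218), in a comparison that called 1.3% of genes, 0.624% with the ratio of IPN moving up with day and 0.68% with it moving down. In IPN it went from 132.56 to 30.98 CPM between E13.5 and E16.5 (log2 ratio -2.18), and in non-IPN from 44.12 to 141.29 CPM (1.53). The log2 ratios of IPN over non-IPN were 1.73, -2.05 and -1.97. The fall thus lay between E13.5 and E15.5, and the term does not describe a steady change per day. Only the E13.5 ratio had the other sign, and the non-IPN library of that age is the one with the high red blood cell and radial glia sums given above. The part of those cells in the Grik2 ratio was not tested. The call was lost without limma's trend and robust options (adjusted p = 0.406), with a pseudocount of 16 (adjusted p = 0.199) and among genes with a mean of at least 10 CPM (0.0631). The model leaves 1 residual degree of freedom against a median prior of 14.5, so the SE rests mostly on the spread shared across genes.

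No other member passed this test. Grik1 had a term of -1.33 ± 0.39 (limma, adjusted p = 0.103), and it was called with column-total scaling (0.0266) and with median-of-ratios scaling (0.0197). Gria1 and Gria2 had terms of -0.40 ± 0.16 and -0.33 ± 0.16 (adjusted p = 0.221 and 0.319), so the lower Gria2 ratio at E16.5 did not pass this test. Gria3 and Gria4 had terms of -0.15 ± 0.20 and -0.08 ± 0.18 (adjusted p = 0.758 and 0.854).

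Genes for proteins that bind, traffic or edit these receptors were taken from lists. Of 16 genes of AMPA receptor auxiliary subunits, 1 was called lower and 0 higher in IPN, with a median log2 difference of 0.20, against -0.02 over all genes. The share called lower among all genes was 2.41%, and 0.982% were called higher, so 1 of 16 is near the background, as is 1 of 18 for the scaffold list below. The called gene was Cacng3, which encodes a transmembrane AMPA receptor regulatory protein. It was at 0.19, 0.86 and 0.41 CPM in IPN and at 3.57, 48.46 and 8.11 CPM in non-IPN (-4.42 ± 0.74; limma, adjusted p = 0.00871), and its call was lost without the E15.5 pair (adjusted p = 0.268) and with a pseudocount of 16 (-3.12, 0.129), its deposited values in IPN being only 3, 28 and 6. Cacng2, which encodes stargazin, was at 0.71 to 53.18 CPM and was not called (-0.93 ± 0.67; limma, adjusted p = 0.627). Cnih2, for cornichon-2, was not called either (0.76 ± 0.32; limma, adjusted p = 0.336).

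Of 4 genes of kainate receptor auxiliary proteins, 1 was called lower in IPN and 0 higher. This was Neto1, at 0.39, 3.56 and 4.86 CPM in IPN and at 8.94, 212.95 and 99.10 CPM in non-IPN, with every non-IPN library above every IPN library. Its log2 difference was -4.71 ± 0.49 (limma, adjusted p = 0.000674), and its adjusted p was 0.0753 with the E15.5 libraries left out. Its relative Neto2 was at 146.39, 320.54 and 563.51 CPM in IPN and at 155.37, 228.67 and 438.66 CPM in non-IPN, and was not called (0.39 ± 0.21; limma, adjusted p = 0.469).

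Of 18 scaffold and trafficking genes, 1 was called higher in IPN and 0 lower, with a median of 0.06. It was Nptx1, for a secreted pentraxin that clusters AMPA receptors, at 22.81, 66.44 and 40.63 CPM in IPN and 3.93, 7.52 and 7.79 CPM in non-IPN (2.81 ± 0.37; limma, adjusted p = 0.00226, or 0.14 with the E15.5 libraries left out).

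Of 9 RNA editing and splicing genes, 1 was called higher and 1 lower, with a median of -0.11. Rbfox1, a splicing regulator, was the higher (1.66 ± 0.26; limma, adjusted p = 0.00653). Adarb2, for a brain relative of the editing enzymes that lacks activity of its own, was the lower (-3.25 ± 0.76; limma, adjusted p = 0.0472). Without the E15.5 pair they had adjusted p of 0.201 and 0.557, and with a pseudocount of 16 of 0.0562 and 0.269. Adarb2 was also lost without the E16.5 pair (0.158), with a minimum mean of 1 CPM (0.055) or 10 CPM (0.0943) and with median-of-ratios scaling (0.0564). Adarb1, which encodes ADAR2, was at 9.37, 46.22 and 15.39 CPM in IPN and 14.23, 40.97 and 19.15 CPM in non-IPN, with a log2 difference of -0.11 ± 0.34 (limma, adjusted p = 0.919). The transcript of the enzyme that edits Gria2 was thus present in every library, and the fitted difference was smaller than its SE. The 2 delta receptor genes and the 7 NMDA receptor subunit genes held no call between populations.

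**Figure D4:**
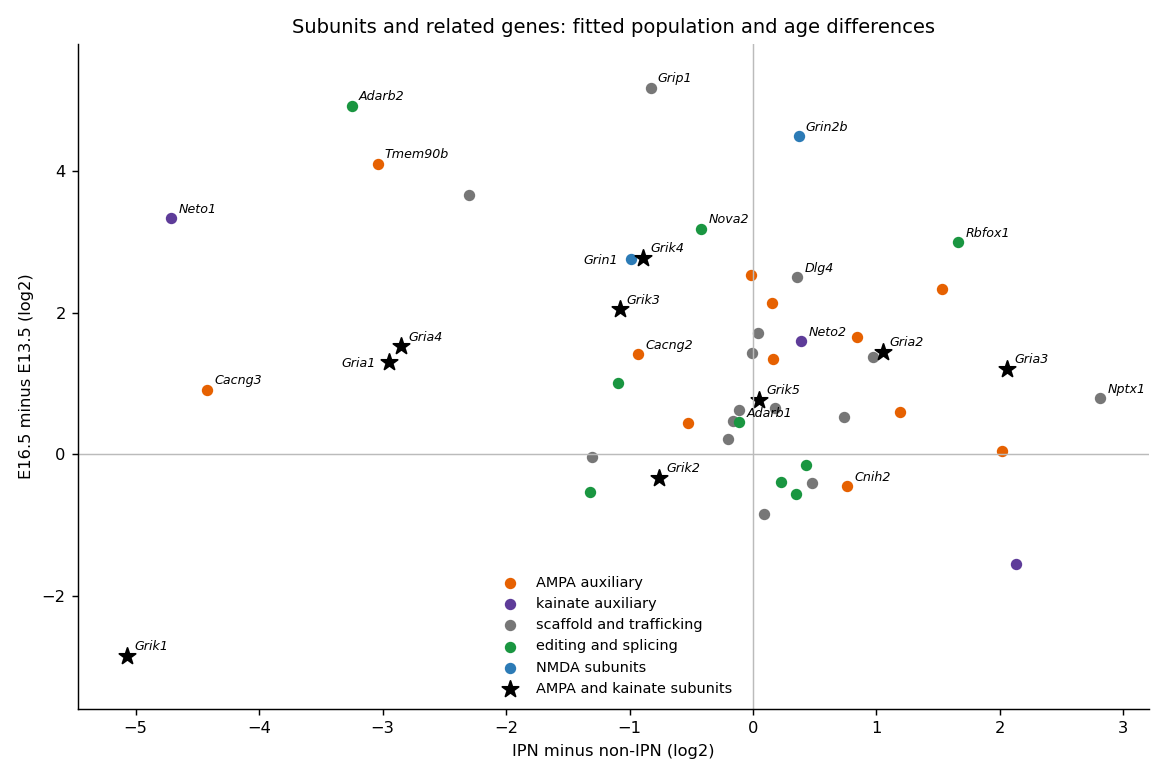
Fitted log2 difference between populations (horizontal) against that between E16.5 and E13.5 (vertical) for the 9 members (stars) and for genes of the related lists with a mean of at least 10 CPM (dots, colored by list). Most dots lie above 0 on the vertical axis. Neto1 and Cacng3 are the dots farthest to the left, and the star of Grik1 lies farther left still. Adarb2 and Tmem90b also lie to the left of Gria1 and Gria4.

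Between E13.5 and E16.5, 3.76% of all genes were called higher and 2.26% lower, and the counts of the related lists stand beside these shares. No gene of these lists fell by the test, and the delta receptors held no call. Among AMPA auxiliary genes 3 of 16 rose, with Tmem90b (Syndig1) at 4.11 ± 0.91 and Shisa9 at 3.80 ± 0.83 on the log2 scale (limma, adjusted p = 0.0283 and 0.0268), and Shisa7, named after its value was seen, at 1.35 ± 0.32 (0.0381). Among kainate auxiliary genes Neto1 (3.34 ± 0.60) and Neto2 (1.60 ± 0.25) rose (limma, adjusted p = 0.012 and 0.00753). Grip1, a scaffold that binds GluA2 and GluA3, went from 0.39 to 3.42 CPM in IPN and from 0.07 to 28.53 CPM in non-IPN (5.18 ± 0.98; limma, adjusted p = 0.0151), and the postsynaptic scaffold gene Dlg4 rose as well (2.50 ± 0.58; 0.0337), so 2 of 18 scaffold genes were called. The Grip1 value averages unlike log2 ratios, 2.87 in IPN and 7.49 in non-IPN. Its population by day term was called (-1.56 ± 0.36; limma, adjusted p = 0.0462).

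Among editing and splicing genes 3 of 9 rose, namely Adarb2 (4.93 ± 0.93), Nova2 (3.19 ± 0.35) and Rbfox1 (3.0 ± 0.32), with adjusted p of 0.015, 0.00152 and 0.00151 by limma. Adarb1 did not pass (0.45 ± 0.41; adjusted p = 0.575). Of the 7 NMDA receptor subunit genes 2 rose, Grin2b (4.50 ± 0.51) and Grin1 (2.76 ± 0.60), with limma adjusted p of 0.00172 and 0.0264. At E13.5 the deposited values of Dlg4 were 14 in IPN and 7 in non-IPN, and those of Grip1 6 and 1. Those of Adarb2 were 1 and 7, of Tmem90b 2 and 10, of Grin1 11 and 22, and of Shisa9 13 and 22. Neto1 was at 6 in IPN and 125 in non-IPN. With a pseudocount of 16, Grin2b, Nova2, Rbfox1 and Neto2 stayed called (limma, adjusted p of 0.0293 to 0.0492). Tmem90b, Shisa9, Neto1, Grip1, Dlg4, Adarb2 and Grin1 were not (0.0864 to 0.227). Without the E15.5 pair, only Rbfox1 of these genes was called over all genes (limma, adjusted p = 0.0298). The median log2 difference was 1.38 for the 4 AMPA subunits, 0.77 for the 5 kainate subunits, 1.13 for the AMPA auxiliary genes, 0.26 for the kainate auxiliary genes, 0.72 for the scaffold genes, 0.45 for the editing and splicing genes, 0.84 for the delta receptors and 1.88 for the NMDA subunits, against 0 over all genes tested. Of the 7 NMDA subunit genes only 2 had a mean of at least 10 CPM. Leaving out any 1 amplified library ended these calls over all genes, since limma then called 0 of them (1809 to 4025 had an unadjusted p under 0.05). Among genes with a mean of at least 1 CPM, Grin2b, Nova2 and Rbfox1 stayed called in all 4 such fits (highest adjusted p of 0.0125, 0.00509 and 0.00926), and the other 8 of these genes, Shisa7 not counted, in 2 or 3 of the 4.

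Genes with the most similar profile were sought for 4 members among 8252 genes with a mean of at least 16 CPM, by Pearson correlation of log2(CPM + 1) over the 6 libraries. The libraries share their protocol within an age set, so these values are descriptions. For Gria4 the closest were Lhx6, a transcription factor of interneurons from the medial ganglionic eminence (r = 0.995), Lmbrd1 (0.994) and Neto1 (0.991). Lhx6 was at 0.13, 14.57 and 7.04 CPM in IPN and at 36.68, 1163.23 and 326.38 CPM in non-IPN. For Gria2 they were B3galt1 (r = 0.991), Rbfox1 (0.988) and the transcription factor Pou3f1 (0.987). Rbfox1 was at 79.95, 230.15 and 437.86 CPM in IPN and at 18.80, 69.12 and 260.26 CPM in non-IPN. For Gria1 they were Zfp536 (r = 0.988), Fnip1 (0.986) and Ncoa3 (0.986), and for Grik3 Pramef8 (r = 0.9997), Atad3a (0.9993) and Zbtb4 (0.9989). The profile of Grik3 and its 3 neighbors was highest in both E15.5 libraries, those made without amplification.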

How the data were processed

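Per the submitters' processing notes, the reads went through CASAVA 1.9, TopHat 1.2.0, edgeR and SAMtools 0.1.18, and the mouse build was mm9. What each tool did, which counter and annotation were used and how values were scaled is not given in the sources used here. The deposited whole numbers were treated as a signal scaled by the authors, not as counts, because the upper quartile over genes was 438 to 444 in the 4 amplified libraries and 1501 to 1502 in both unamplified ones, while column totals differed. Depth is therefore unknown and no counting interval was given.

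The 6 files were joined by symbol. Of 20373 rows, 6 rows of 3 repeated symbols were dropped, leaving 20367 genes, of which 19561 were above 0 somewhere and tested. Differences were fitted with limma 3.58.1 in R 4.3.3 with both its trend and its robust option, on log2(value + 1), so changes of low genes are understated, calling genes with a Benjamini-Hochberg adjusted p under 0.05. The model had population and age as factors (2 residual degrees of freedom, median prior of 8.26), and a second one added population by embryonic day (1 residual degree of freedom, median prior of 14.5). Age pairs the libraries, since per the labels' protocols the same cortices gave both sorted populations. Deviations of same-age libraries from their population means correlated at 0.431 to 0.830 across genes, and those of libraries of different ages at -0.628 to 0.293. Libraries of an age also share cell number and amplification, so these values cannot tell shared cortices from a shared protocol. Shares and sums were compared by exact permutation tests. No 2 libraries held the same values.

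Members and gene lists were chosen with earlier results of these data known. Named from the related lists were the up to 3 called genes per direction with the largest population difference and up to 2 with the largest age difference, with at least 4 CPM in 1 library, and Adarb1, Neto1, Neto2, Cacng2 and Cnih2. Coding and transcript lengths and the codon windows came from GENCODE M21 (GRCm38), whose coordinates were not used. The alternatives were other pseudocounts, filters, scalings, limma options, models and left-out libraries.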

Additional observations from a re-analysis of the deposited data

Results flagged for a closer look

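Grik2 stood out because its population ratio differed between ages by the test of that difference, with a population by day term of -1.33 (log2 per day; limma, adjusted p = 0.0218). Its log2 ratio of E16.5 over E13.5 was -2.18 in IPN and 1.53 in non-IPN.

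For 2 further members the ratio of IPN over non-IPN, taken on deposited values + 1, changed sign with age, and the difference between ages did not pass limma's population by day test. For Grik4 the log2 ratio was 1.0, -1.76 and -1.93 from the youngest age to the oldest (adjusted p = 0.423), and the E13.5 value sets a deposited value of 1 against one of 0. For Grik5 it was -0.14, 0.10 and 0.18 (adjusted p = 0.809).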

How the results depend on the processing

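The cause of the changes below was not tested. Limma called 664 genes and 5 members between populations, 1178 and 4 between ages, and 255 and 1 for population by day. With a pseudocount of 16 the counts were 220 and 3, 200 and 0, and 3 and 0. With the trend and robust options both off they were 0 genes and 0 members in each comparison, although 1946, 3414 and 2321 genes had an unadjusted p under 0.05. Without age as the pairing term (no replicate block) limma called 0 genes and 0 members between populations (676 with an unadjusted p under 0.05), and without the population term 0 and 0 between ages (3368). Among genes with a mean of at least 10 CPM there were 358 population calls, and 135 population by day calls with 0 members. For population by day a pseudocount of 0.5 gave 530 calls, column-total scaling 1422 with 2 members and median-of-ratios scaling 1558 with 2 members.

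Leaving out 1 age pair gave 54 to 595 population calls with 0 to 5 members, lowest without the E15.5 pair. Leaving out 1 library or the E15.5 pair gave 0 to 97 age calls with 0 members. Repeated, as a choice made after seeing the data, among genes with a mean of at least 1 CPM, these were 192 to 923 with 2 to 6 members, and 263 to 3223 with 1 to 6 members. In these repeats, age calls numbered 3223 and 1956 without the IPN or non-IPN library of E13.5, 637 and 263 without that of E16.5, and 731 without the E15.5 pair. Population by day cannot be fitted without a pair, since no residual degree of freedom is left.

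Signs turned for Grik5, for Grik2 and for the summed AMPA signal. The Grik5 population difference was -0.09 with column-total scaling, and -0.02 to 0.14 when a pair was left out. The Grik2 age difference was -0.33 ± 0.96 in the main fit. It was 1.55 and 0.58 without the IPN library of E13.5 or E16.5, and -2.20 without the non-IPN library of E13.5. Its direction thus turned with the library left out, and by more than a small shift around 0. The summed AMPA log2 ratio ranged from -0.40 to 0.34. The other signs of the members held in the settings run. Column-total scaling moved the median population difference of all genes from -0.02 to -0.15. The Gria2 share difference was 24.1 to 41.4 percentage points with an age left out. Depth is unknown, so counting error at low values such as those of Grik4 could not be given.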
